A study of Arabidopsis thaliana with 27 samples.

Results

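The late response of wild-type leaves to ozone was described from 8 of the 27 arrays of a study of Arabidopsis thaliana: the 4 whose titles put them in wild type, ozone and 2 d, against the 4 titled wild type, clean air and 2 d. Columbia wild-type plants (Col-0) were given 125 ppb ozone for 7 h a day, and their clean-air counterparts were held at 5 ppb. Plants of both groups had grown for 4 to 5 weeks under 9 h of light and 15 h of dark, and both then stood in the exposure chambers at 24 degrees C and 53% relative humidity, so that the move to the chambers is shared by ozone and clean air. Total RNA came from mid-whorl leaves, which hold all leaf cell types. The remaining arrays held the mutant in ozone and clean air at 2 d (4 and 3 arrays), the mutant at 3 h (3 and 3) and wild type in ozone and clean air at 3 h (3 and 3). The mutant, gpa1-4/agb1-2, is null for the G protein genes GPA1 (alpha subunit) and AGB1 (beta subunit) in the whole plant. The labels call the replicates biological, but which plants were pooled for 1 array and which of the 4 chambers each came from are not given in the sources used here, and an effect of the chamber was not tested.

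Ozone enters a leaf through the stomata and breaks down in the cell wall space to reactive oxygen species. Leaf cells answer within hours with signalling and defence genes that overlap with those of the response to pathogens, and exposure over days is known to lower photosynthesis and to hasten senescence. The chloroplast carries a small genome of its own, which encodes core subunits of the photosynthetic complexes and part of its own ribosome and RNA polymerase, while most chloroplast proteins are encoded in the nucleus.

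Each array was an Affymetrix ATH1 array, on which a probe set reports 1 transcript or a few related ones, and levels are given here as log2(intensity + 1), with 1 added so that a value of 0 has a logarithm. Median intensities of the 8 arrays lay between 153.5 and 175.85, and the correlation between 2 arrays of 1 group over probe sets was 0.945 to 0.964. The number of arrays limits the precision, with a median standard error (SE) of a change of 0.29. Of 41 markers of leaf, root and flower cell types 5 could be read from a named probe set. RCA (Rubisco activase), the mesophyll marker among them, stood near the top of the range at 14.01 ± 0.17 in ozone leaves and 14.28 ± 0.09 in clean-air leaves. The guard cell marker FAMA, the trichome marker TRY and the root markers PYK10 and EXPA7 had changes of -0.02, -0.63, 0.40 and 0.14, none past the test. The labelled tissue was thus checked by RCA alone on the mesophyll side. In RNA from whole leaves, fewer cells of a type and less RNA per cell cannot be told apart.

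After 2 d of ozone, 784 of 22746 probe sets passed an adjusted p of 0.05 in limma, which is 3.45%, with 370 higher (1.63%) and 414 lower (1.82%). Among 13350 genes with 1 probe set each, 423 passed (3.17%), of which 185 were higher (1.39%) and 238 lower (1.78%). The rises were the larger changes: the median change was 1.32 for probe sets that rose and -1.07 for those that fell, on the log2 scale. Genes that rose had a median level of 8.08 in clean air and of 9.56 in ozone. Genes that fell had one of 9.26 in clean air and of 8.11 in ozone. Rises and falls here are differences from clean-air leaves at the same 2 d, not from an earlier level. The share that passed grew with level, with 1.1% of probe sets under a mean of 6, 3.48% between 6 and 9 and 6.33% above 9, so a dim gene that did not pass is weakly tested. Across all probe sets the median change was -0.09, and the changes below are to be read against it. Among the 13350 named genes 7849 (58.79%) had a change below 0 and 5501 had one above. Counts of list members are to be read against these shares, and against the 1.39% of named genes that rose and the 1.78% that fell.

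**Figure D1:**
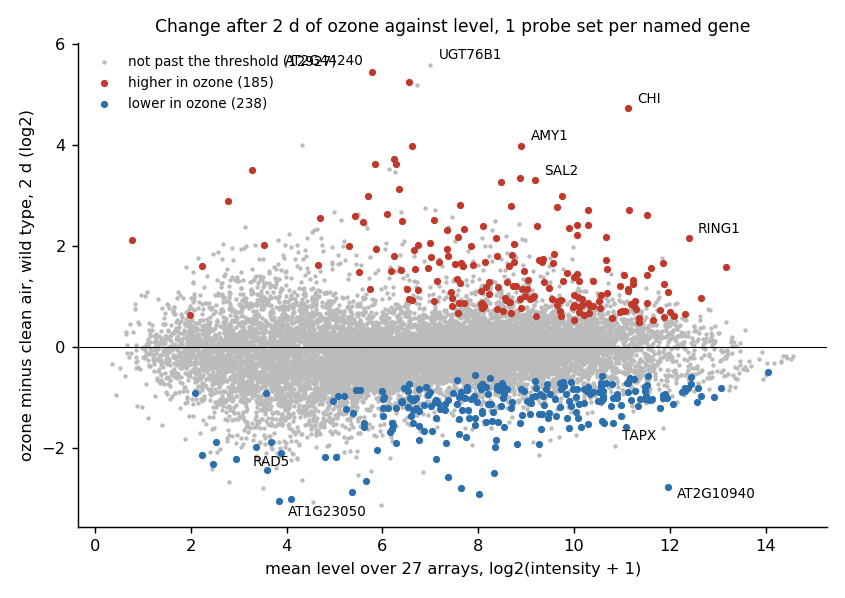
Change after 2 d of ozone in wild-type leaves (y axis, ozone minus clean air, log2) against the mean level over 27 arrays (x axis, log2(intensity + 1)), 1 point per named gene. Red points are the 185 genes higher in ozone and blue points the 238 lower; UGT76B1, the highest point, is grey because it did not pass the test.

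The groups of 4 arrays did not overlap for 3017 probe sets (13.3%), among them 352 of the 370 that rose and 374 of the 414 that fell. Part of the genes below were named by a rule that asks for no overlap. A lack of overlap in a named gene is thus a description and no further support. The number of calls changed with the array left out, and why was not tested. It was 64 without ozone replicate 2, 96 without clean air replicate 2, 184 without ozone replicate 3, 221 without clean air replicate 1, 402 without clean air replicate 3, 457 without clean air replicate 4, 562 without ozone replicate 4 and 971 without ozone replicate 1. In each of these 8 fits 11 of the named genes that rose and 19 of those that fell passed, and those named below are marked as such. Where only these 8 arrays entered the fit, 393 probe sets passed. Of the genes named below 45 lost the call there. In the annotation used, 90 of the 423 named genes past the test have a symbol other than a locus number, and roles are given for those alone.

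The genes with a symbol that rose included CHI, AMY1, LUP5, SAL2 and RING1. The largest rises past the test among named genes were those of AT2G44240 and AT3G28510, known here by locus number alone. With a pseudocount of 16 these were 4.48 and 3.96, against 4.67 for CHI. CHI, a chitinase gene, which codes for an enzyme that cleaves fungal cell wall chitin, had levels of 13.06, 13.39, 13.20 and 13.13 in ozone leaves, against 9.61, 8.63, 7.69 and 7.91 in clean-air leaves. All 4 ozone arrays lay within a narrow band near the upper end of the range, and the clean-air arrays were lower and more scattered, a difference of 4.73 ± 0.91 or 26.6-fold (adjusted p = 0.0141). AMY1, an alpha-amylase gene, whose enzyme breaks starch, had 10.91, 11.55, 11.41 and 10.21 in ozone leaves, against 8.12, 6.52, 6.62 and 6.85 in clean-air leaves. The lowest ozone array lay above the highest clean-air array, and the change was 3.99 ± 0.57 or 15.9-fold (adjusted p = 0.00447). RING1, which codes for a ubiquitin ligase of the RING finger type that acts in programmed cell death and defence, had 13.20, 13.54, 13.22 and 13.09 in ozone leaves, against 11.55, 11.28, 10.43 and 11.14 in clean-air leaves, a change of 2.16 ± 0.36 with no overlap between groups. SAL2, of the inositol phosphatase family, had 10.34, 10.89, 10.81 and 11.68 in ozone leaves, against 8.16, 7.88, 6.99 and 7.46 in clean-air leaves, a change of 3.31 ± 0.64, also without overlap. LUP5, of the lupeol synthase family of triterpene enzymes, averaged 9.03 ± 0.63 in ozone leaves and 5.04 ± 1.46 in clean-air leaves (SD, n = 4 each), a change of 3.99 ± 0.98, on a dim and scattered clean-air signal. AMY1, RING1 and SAL2 passed in all 8 fits that each left out 1 array. Without ozone replicate 2, CHI and LUP5 lost the call, and without ozone replicate 3, clean air replicate 2, clean air replicate 3 or clean air replicate 4, LUP5 did (highest adjusted p 0.053 for CHI and 0.0939 for LUP5).

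Of 8 genes of starch metabolism AMY1 alone passed, and the list had 3 members above 0 and 5 below, with a median of -0.15 against -0.10 over all named genes. Of 12 small antimicrobial and pathogenesis-related genes 1 rose (CHI) and 1 fell, 6 stood above 0 and 6 below, and the median was -0.06. The one that fell was ATLP-1, a thaumatin-like protein gene, with 6.65, 5.49, 5.69 and 6.24 in ozone leaves, against 7.65, 7.86, 6.74 and 8.09 in clean-air leaves, a change of -1.57 ± 0.35 (adjusted p = 0.0217). ChiC, another chitinase gene, had 8.04 ± 0.55 in ozone leaves and 6.75 ± 0.64 in clean-air leaves, a change of 1.29 ± 0.41 that did not pass (adjusted p = 0.0766). ChiC passed with dim probe sets left out (adjusted p = 0.045) and without ozone replicate 1 (adjusted p = 0.0447). Of 21 immune receptor and defence signalling genes RING1 alone passed, with a list median of 0.29. In that list SAG101, which codes for a lipase-like partner of EDS1 in immune signalling, had 9.16, 9.35, 9.36 and 9.98 in ozone leaves, against 7.84, 8.10, 7.97 and 7.80 in clean-air leaves, and in spite of separate groups its change of 1.53 ± 0.53 missed the threshold (adjusted p = 0.105). SAG101 passed with array weights (adjusted p = 0.0423) and where only the 8 arrays compared entered the fit (adjusted p = 0.0181). The senescence-associated transcription factor gene WRKY53 stood at 10.78 ± 0.71 in ozone leaves and 9.26 ± 0.59 in clean-air leaves, a change of 1.52 ± 0.48 that missed it too (adjusted p = 0.079). WRKY53 passed with dim probe sets left out (adjusted p = 0.0467) and without ozone replicate 1 (adjusted p = 0.0438). No other of 6 WRKY genes passed in these fits, and their median was 0.45, with a range of 0.08 to 0.74 over the alternatives. None of 47 UDP-glycosyltransferase genes passed, and UGT76B1, whose enzyme glycosylates the defence regulator isoleucic acid, had the highest change of any named gene with 6.95, 6.87, 9.72 and 12.27 in ozone leaves, against 4.42, 3.96, 1.63 and 3.39 in clean-air leaves. With a pseudocount of 16 its change shrank to 4.30, below the 4.67 of CHI. The ozone arrays of UGT76B1 ranged over more than 5 log2 units, and the change of 5.60 ± 1.63 had an adjusted p of 0.0572. That p was 0.0322 with dim probe sets left out, 0.0377 with array weights and 0.0475 without ozone replicate 1. Of the 47 genes 3 rose with dim probe sets left out, and 3 rose and 2 fell with array weights. There were 2 rises without ozone replicate 1 and 1 without clean air replicate 4. ATLP-1 lost the call without ozone replicate 2, ozone replicate 3, clean air replicate 1, clean air replicate 2 or clean air replicate 4 (highest adjusted p 0.0818).

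**Figure D2:**
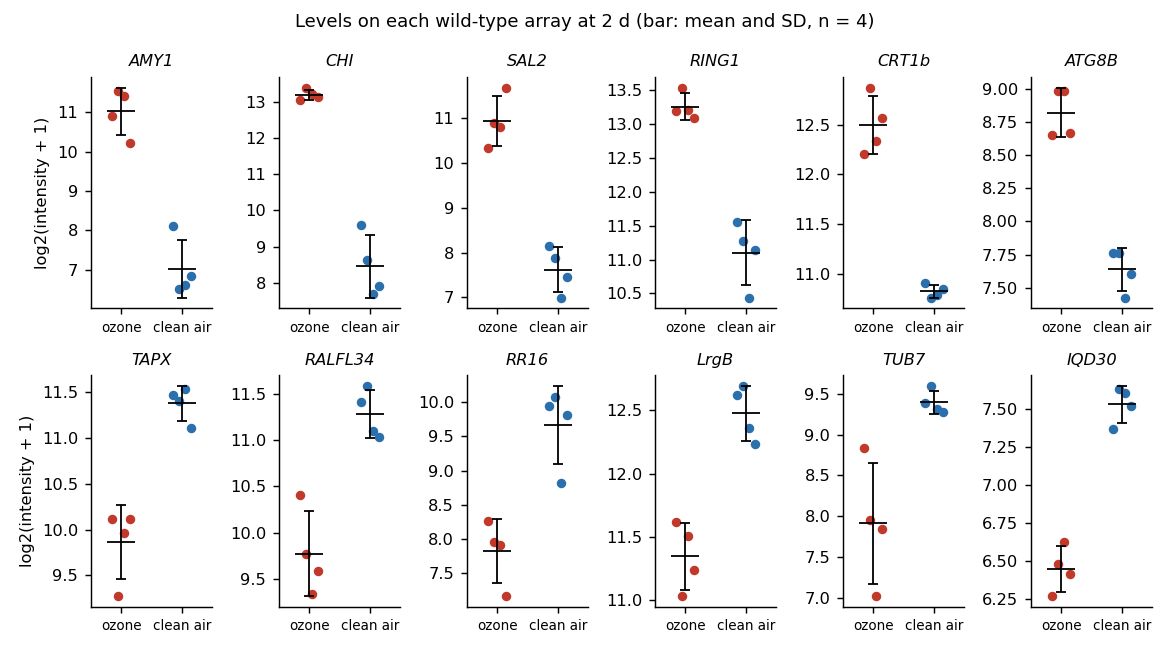
Level on each wild-type array at 2 d for 6 genes that rose (upper row) and 6 that fell (lower row), as log2(intensity + 1), ozone in red on the left and clean air in blue on the right, with bars for the mean and SD of 4 arrays. In none of the 12 genes do the groups overlap, as in 352 of the 370 probe sets that rose and 374 of the 414 that fell. A lack of overlap was part of the rule by which genes were named. The y axes do not start at 0 and differ between panels.

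Genes of protein folding in the endoplasmic reticulum were among the rises. Of 14 measured, 3 rose and none fell, while 1.39% of all named genes rose. Of the 14, 12 lay above 0, as did 5501 of the 13350 named genes. The median was 0.45 against -0.10 over all named genes. CRT1b, a calreticulin gene, whose protein is a calcium-binding chaperone of glycoproteins, had 12.21, 12.88, 12.34 and 12.57 in ozone leaves, against 10.90, 10.75, 10.78 and 10.85 in clean-air leaves. The clean-air arrays were almost level with each other and each ozone array stood more than 1 log2 unit higher, a change of 1.68 ± 0.41 (adjusted p = 0.0304). ATERDJ3B, a J-domain co-chaperone gene of the endoplasmic reticulum, averaged 12.12 ± 0.45 in ozone leaves and 10.70 ± 0.34 in clean-air leaves, a change of 1.42 ± 0.39. ATERDJ2B, another J-domain gene, had 9.002, 9.08, 8.66 and 9.61 in ozone leaves, against 7.35, 7.95, 8.38 and 8.04 in clean-air leaves, a change of 1.16 ± 0.25. BZIP60, which codes for the transcription factor spliced on folding stress, had a change of 0.91 ± 0.39, and DER1, for a derlin of protein removal from that compartment, one of 0.88 ± 0.33, and neither passed (adjusted p = 0.186 and 0.126). The call was lost for CRT1b, ATERDJ3B and ATERDJ2B without ozone replicate 2, clean air replicate 1 or clean air replicate 2, and for CRT1b and ATERDJ3B without ozone replicate 3, ozone replicate 4, clean air replicate 3 or clean air replicate 4 (highest adjusted p 0.0939 for CRT1b, 0.126 for ATERDJ3B and 0.0655 for ATERDJ2B). Without ozone replicate 2, clean air replicate 1 or clean air replicate 2 the list held 0 calls, while its median stayed between 0.39 and 0.51 over the alternatives.

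Of 8 glutamate receptor-like channel genes, which code for calcium-permeable channels of the plasma membrane and other membranes, 2 rose. Among all named genes 1.39% rose. The list median was 0.63, or 0.35 with a pseudocount of 16. GLR1.4 had 10.06, 10.05, 9.67 and 9.46 in ozone leaves, against 8.83, 8.20, 7.27 and 7.62 in clean-air leaves, a change of 1.83 ± 0.43. GLR2.8 had 8.19, 8.21, 8.22 and 7.47 in ozone leaves, against 6.45, 6.45, 5.48 and 6.57 in clean-air leaves, a change of 1.79 ± 0.39, with ozone replicate 4 below the 3 others and still above all clean-air arrays. HYH, a bZIP transcription factor gene related to HY5 of light signalling, had 7.32, 7.51, 7.69 and 7.80 in ozone leaves, against 5.94, 5.91, 5.01 and 6.20 in clean-air leaves, a change of 1.81 ± 0.42 (adjusted p = 0.0244). HYH alone passed among 17 bZIP genes, whose median was 0.15. ARA6, coding for an endosomal Rab GTPase, shows how tight a small change can be: its levels were 10.50, 10.48, 10.58 and 10.54 in ozone leaves, against 9.63, 9.91, 10.05 and 9.998 in clean-air leaves, a change of 0.63 ± 0.14 with an adjusted p of 0.0194. WES1, a gene of the GH3 family whose enzymes join amino acids to plant hormones, averaged 7.41 ± 0.27 in ozone leaves and 6.47 ± 0.49 in clean-air leaves, with 1 clean-air array above the lowest ozone array. Leaving out ozone replicate 1 or ozone replicate 4 ended the call for WES1, and leaving out ozone replicate 2, ozone replicate 3 or clean air replicate 2 ended it for all of GLR1.4, GLR2.8, HYH, ARA6 and WES1. HYH and ARA6 lost the call without clean air replicate 1, and all but ARA6 did without clean air replicate 3. Without clean air replicate 4, GLR1.4 and WES1 lost the call (highest adjusted p 0.0651 for GLR2.8 to 0.118 for WES1).

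Single genes of metabolism were among the rises. Among 26 cytochrome P450 genes 2 rose, CYP71B26 with 9.57 ± 1.23 in ozone leaves and 7.21 ± 0.73 in clean-air leaves and CYP71B23 with 9.94 ± 0.77 in ozone leaves and 8.22 ± 0.10 in clean-air leaves, while the list median was -0.05. Among all named genes 1.39% rose. Of the 26 genes 0 rose where only the 8 arrays compared entered the fit. GFAT, for the aminotransferase that makes glucosamine 6-phosphate at the start of the hexosamine pathway, had 8.20, 8.74, 8.53 and 8.86 in ozone leaves, against 6.86, 6.98, 6.79 and 7.16 in clean-air leaves, a change of 1.63 ± 0.40. LPR2, a multicopper oxidase gene known from the response of roots to low phosphate, had 10.84, 11.53, 11.41 and 11.26 in ozone leaves, against 9.94, 10.06, 10.16 and 10.04 in clean-air leaves, a change of 1.21 ± 0.24 with tight groups on both sides. CCOAMT, a caffeoyl-CoA methyltransferase gene of phenylpropanoid metabolism, changed by 0.92 ± 0.24 and ALATS, an alanyl-tRNA synthetase gene, by 0.76 ± 0.17. DI21, named for induction by drought, had 8.01, 8.41, 7.43 and 6.07 in ozone leaves, against 6.05, 6.25, 5.34 and 5.99 in clean-air leaves, and ozone replicate 4 lay within the clean-air range. Significance was lost for DI21 without ozone replicate 1, and for all of CYP71B26, CYP71B23, GFAT, LPR2, CCOAMT, ALATS and DI21 without ozone replicate 2. Leaving out ozone replicate 3, clean air replicate 1 or clean air replicate 2 ended the call for all but LPR2, and leaving out ozone replicate 4 ended it for CYP71B23 and GFAT. All but CYP71B26, LPR2 and ALATS lost the call without clean air replicate 3, and all but GFAT, LPR2 and ALATS did without clean air replicate 4 (highest adjusted p 0.0588 for LPR2 to 0.157 for DI21).

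Redox genes were found among both the rises and the falls. Of 16 genes of ascorbate, glutathione and peroxide metabolism 2 rose and 1 fell, with a median of 0.29. Among all named genes 1.39% rose and 1.78% fell. Both rises lost the call where only the 8 arrays compared entered the fit. GR1, for cytosolic glutathione reductase, which keeps glutathione reduced, had 9.93, 10.17, 10.92 and 10.08 in ozone leaves, against 9.08, 8.92, 9.28 and 9.55 in clean-air leaves, a change of 1.07 ± 0.21. AER, for an alkenal reductase that removes reactive products of lipid peroxidation, had 10.31, 10.34, 11.04 and 10.12 in ozone leaves, against 9.73, 9.68, 9.64 and 9.39 in clean-air leaves, a change of 0.84 ± 0.22. The one that fell was TAPX, for the ascorbate peroxidase of the thylakoid membrane, which removes hydrogen peroxide beside the photosystems. TAPX had 10.12, 9.27, 9.96 and 10.11 in ozone leaves, against 11.47, 11.39, 11.53 and 11.11 in clean-air leaves, and all 4 ozone arrays lay below all 4 clean-air arrays, a change of -1.51 ± 0.27 that passed in all 8 fits with 1 array left out. Without ozone replicate 2, ozone replicate 3, clean air replicate 1, clean air replicate 3 or clean air replicate 4, AER lost the call, and without clean air replicate 2, GR1 and AER did (highest adjusted p 0.0564 for GR1 and 0.129 for AER).

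Single genes of mitochondria and of autophagy were among the rises. Of 20 nuclear genes of mitochondrial respiration 1 rose and 13 lay above 0, with a median of 0.30. That call was lost where only the 8 arrays compared entered the fit. CYTC-2, for cytochrome c, the carrier between respiratory complexes, had 9.93, 9.87, 10.52 and 9.43 in ozone leaves, against 8.96, 8.92, 9.14 and 8.59 in clean-air leaves, a change of 1.03 ± 0.27. NDB2, for an NADH dehydrogenase of the alternative respiratory pathway, had 9.84 ± 0.79 in ozone leaves and 8.20 ± 0.65 in clean-air leaves, a change of 1.63 ± 0.61 that did not pass (adjusted p = 0.132). DELTA-OAT, for mitochondrial ornithine aminotransferase, changed by 0.96 ± 0.22. Of 16 genes of the mitochondrial genome 13 lay above 0, with a median of 0.15, and ccb203, named for cytochrome c biogenesis, rose by 1.63 ± 0.36 on a dim signal of 5.19 ± 0.36 in ozone leaves and 3.55 ± 0.48 in clean-air leaves. The gene nad1, a complex I subunit, had 7 probe sets that did not agree: 2 rose by 0.9995 ± 0.24 and 1.18 ± 0.30, and the brightest had a change of 0.16 ± 0.19 that did not pass. Of 10 autophagy genes ATG8B alone passed, coding for a ubiquitin-like protein that is joined to the autophagosome membrane. It had 8.65, 8.98, 8.99 and 8.67 in ozone leaves, against 7.76, 7.76, 7.42 and 7.60 in clean-air leaves, a change of 1.19 ± 0.21 that passed in all 8 fits with 1 array left out. The call was lost for CYTC-2 without ozone replicate 1, and for CYTC-2, DELTA-OAT and ccb203 without ozone replicate 2, ozone replicate 3 or clean air replicate 2. Leaving out clean air replicate 1 ended the call for CYTC-2 and ccb203, and leaving out clean air replicate 3 or clean air replicate 4 ended it for CYTC-2 and DELTA-OAT (highest adjusted p 0.118 for CYTC-2, 0.0849 for DELTA-OAT and 0.0677 for ccb203).

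Transcripts of the plastid genome were lower in ozone almost throughout. Of 69 plastid-encoded genes 20 fell and none rose, while 1.78% of all named genes fell. A change below 0 was found for 68 of them, against 58.79% of all named genes. Their median was -0.80 against -0.10 over all named genes. By array, the median level of the 69 was 11.46, 11.10, 10.66 and 11.42 in ozone, against 11.90, 11.71, 11.89 and 11.77 in clean air, so ozone replicate 3 stood lowest and the groups did not overlap. The number of calls changed with the array left out: 0 genes fell without clean air replicate 2, 1 without ozone replicate 2, 3 without ozone replicate 3 and 3 without clean air replicate 1. It was 12 without clean air replicate 3, 12 without clean air replicate 4, 16 without ozone replicate 4 and 25 without ozone replicate 1. The count was 6 where only the 8 arrays compared entered the fit, 36 with dim probe sets left out and 38 with array weights. The median kept its sign, with a range of -0.89 to -0.68 over the alternatives.

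Median changes were below 0 for the genes of each complex. The medians were -0.45 for 6 cytochrome b6f genes (0 passed, 3 with array weights and 2 with dim probe sets left out), -0.56 for 20 photosystem genes (4 fell), -0.86 for 15 ribosomal protein genes (8 fell), -0.87 for 10 NADH dehydrogenase-like genes (2 fell), -0.90 for 6 ATP synthase genes (2 fell) and -1.11 for 4 RNA polymerase genes (2 fell). These medians overlap in their members' ranges and the differences between complexes were not tested.

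The photosystem genes that fell were psbD, psbC and psbL of photosystem II and psaB of photosystem I. The first, for the D2 reaction centre protein, had 9.83, 9.39, 9.003 and 10.53 in ozone leaves, against 11.44, 11.0001, 11.11 and 11.56 in clean-air leaves, a change of -1.59 ± 0.37, and psbC, for the core antenna protein CP43, had 12.60, 12.22, 12.29 and 12.49 in ozone leaves, against 13.16, 13.14, 13.16 and 13.40 in clean-air leaves, a change of -0.82 ± 0.19. The small subunit gene psbL changed by -0.57 ± 0.14 and psaB by -0.49 ± 0.14, and psaB stood at the very high levels of 13.72 ± 0.06 in ozone leaves and 14.20 ± 0.15 in clean-air leaves. The companion reaction centre gene psaA had a larger but scattered difference, with 11.21, 10.12, 8.48 and 12.15 in ozone leaves, against 11.92, 11.35, 12.05 and 13.07 in clean-air leaves, and did not pass (adjusted p = 0.126). It passed without ozone replicate 4 (adjusted p = 0.0491). The assembly factor gene ycf3, needed for photosystem I, had 9.84, 9.33, 8.86 and 9.36 in ozone leaves, against 11.05, 11.08, 10.67 and 10.64 in clean-air leaves, a change of -1.52 ± 0.30. psbL and psaB lost the call without ozone replicate 1 or clean air replicate 3, and all of psbD, psbC, psbL, psaB and ycf3 did without ozone replicate 2 or clean air replicate 2. Without ozone replicate 3, clean air replicate 1 or clean air replicate 4, all but ycf3 lost the call, and without ozone replicate 4, psaB did (highest adjusted p 0.0538 for ycf3 to 0.123 for psaB). The calls of psaB and psbL were lost too when arrays were centred on their median.

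Among the genes of plastid gene expression, rpoC1 and rpoC2, for subunits of the plastid-encoded RNA polymerase, fell by similar amounts. The level of rpoC1 averaged 9.79 ± 0.77 in ozone leaves and 11.24 ± 0.41 in clean-air leaves, and that of rpoC2 8.35 ± 0.48 in ozone leaves and 9.67 ± 0.52 in clean-air leaves. The ribosomal protein genes rpl16 and rpl14 had changes of -1.08 ± 0.22 and -1.12 ± 0.25, and rpl16 stood at 12.23, 11.57, 11.80 and 11.55 in ozone leaves, against 13.13, 12.96, 12.65 and 12.75 in clean-air leaves. The protease subunit gene clpP had 12.07, 12.41, 11.56 and 12.23 in ozone leaves, against 13.004, 13.08, 13.13 and 12.88 in clean-air leaves, a change of -0.96 ± 0.19. Of the NADH dehydrogenase-like complex, which returns electrons to the photosynthetic chain, ndhJ changed by -1.07 ± 0.27 and ndhA by -0.89 ± 0.22. Of the ATP synthase, atpF changed by -0.93 ± 0.22 and atpA by -0.87 ± 0.24. Significance was lost for atpA without ozone replicate 1, and for all but clpP without ozone replicate 2. Leaving out ozone replicate 3 or clean air replicate 1 ended the call for all but rpl16 and clpP, and leaving out ozone replicate 4 or clean air replicate 3 ended it for rpoC1, ndhJ and atpA. All of rpoC1, rpoC2, rpl16, rpl14, clpP, ndhJ, ndhA, atpF and atpA lost the call without clean air replicate 2, and ndhA, atpF and atpA did without clean air replicate 4 (highest adjusted p 0.0514 for clpP to 0.149 for atpA). The call of atpA was lost too when arrays were centred on their median.

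**Figure D3:**
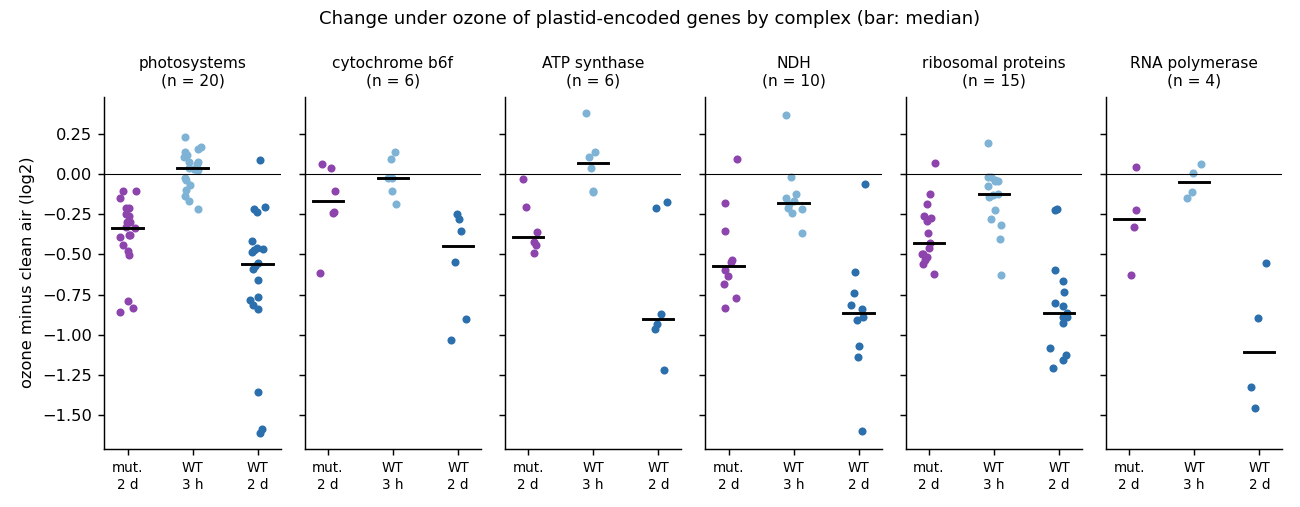
Change under ozone (y axis, log2) of plastid-encoded genes in 6 panels by complex, for the mutant (mut.) at 2 d in purple and wild type (WT) at 3 h in light blue and at 2 d in dark blue, with 1 point per gene and a bar at the median. Wild-type medians at 2 d run from -0.45 to -1.11, while those at 3 h lie between -0.18 and 0.07.

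In 4 lists of nuclear genes for chloroplast proteins every measured member was below 0. In a list of RNA editing factors 6 of 9 were (66.67%), near the 58.79% of all named genes. Of 10 genes for assembly of the photosystems and the electron transport chain 4 fell and all 10 were below 0, with a median of -0.84. CYTC6A, for a soluble cytochrome of the thylakoid lumen, had 7.53, 6.91, 7.05 and 7.39 in ozone leaves, against 8.43, 8.48, 9.04 and 8.55 in clean-air leaves. CCB3, for cofactor binding to cytochrome b6, had 8.51, 8.48, 8.75 and 8.43 in ozone leaves, against 9.56, 9.66, 9.57 and 9.28 in clean-air leaves, a change of -0.98 ± 0.26, and its groups did not overlap. LPA1, for a photosystem II assembly factor, changed by -0.71 ± 0.16, and CcdA, which passes reducing power across the thylakoid membrane, by -0.61 ± 0.15. Of 6 nuclear genes of the NADH dehydrogenase-like complex 2 fell, NdhL with 11.54, 10.98, 11.21 and 10.93 in ozone leaves, against 12.31, 12.22, 12.27 and 11.98 in clean-air leaves and NdhN with a change of -1.02 ± 0.27, and the median was -0.77. None of 7 light harvesting and photosystem subunit genes passed, all were below 0, and their median was -0.64. Of these 4 fell with array weights and 1 with dim probe sets left out. None of 9 chlorophyll and tetrapyrrole synthesis genes passed, all were below 0, and their median was -0.51, with CHLM, a methyltransferase gene of chlorophyll synthesis, at 11.73 ± 0.42 in ozone leaves and 12.67 ± 0.27 in clean-air leaves. CHLM passed with array weights (adjusted p = 0.0348), where 3 of the 9 fell, and 1 fell with dim probe sets left out. Of the RNA editing factors none passed and the median was -0.34 (-0.43 to -0.20 over the alternatives). Without ozone replicate 1, CCB3 lost the call, and without ozone replicate 2, ozone replicate 3 or clean air replicate 2, all of CYTC6A, CCB3, LPA1, CcdA, NdhL and NdhN did. The call was lost for CCB3, NdhL and NdhN without ozone replicate 4, and for all but LPA1 without clean air replicate 1 or clean air replicate 3. Leaving out clean air replicate 4 ended the call for CYTC6A and CCB3 (highest adjusted p 0.07 for LPA1 to 0.109 for NdhN).

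Other chloroplast genes that fell came from division, transport and lipid and pigment metabolism. LrgB, for the chloroplast envelope transporter of glycolate and glycerate in photorespiration, had 11.62, 11.03, 11.51 and 11.24 in ozone leaves, against 12.62, 12.69, 12.36 and 12.23 in clean-air leaves, a change of -1.13 ± 0.26. FTSZ2-2, a tubulin-like chloroplast division gene, averaged 9.19 ± 0.45 in ozone leaves and 10.36 ± 0.09 in clean-air leaves. UPP, for a uracil phosphoribosyltransferase of pyrimidine salvage, had 9.48, 8.64, 8.29 and 8.71 in ozone leaves, against 10.11, 10.55, 9.87 and 9.92 in clean-air leaves, a change of -1.33 ± 0.29. NOL, for chlorophyll b reductase, changed by -0.73 ± 0.19, FATB, for the thioesterase that releases saturated fatty acids from the chloroplast, by -0.71 ± 0.20, and Z-ISO, for an isomerase of carotenoid synthesis, by -0.70 ± 0.19. Of 4 genes for ATP-citrate lyase, which makes cytosolic acetyl-CoA, 2 fell: ACLA-1 had 10.84, 10.79, 10.74 and 10.999 in ozone leaves, against 11.55, 11.43, 11.46 and 11.41 in clean-air leaves, and ACLA-2 changed by -1.13 ± 0.26. The list median was -0.60, and 0 fell where only the 8 arrays compared entered the fit. All of LrgB, FTSZ2-2, UPP, NOL, FATB, Z-ISO, ACLA-1 and ACLA-2 lost the call without ozone replicate 2, ozone replicate 3 or clean air replicate 2, and FTSZ2-2, NOL, FATB and Z-ISO did without ozone replicate 4. Without clean air replicate 1, all but UPP lost the call, and without clean air replicate 3, all but LrgB, UPP and ACLA-2 did. Significance was lost for FTSZ2-2, Z-ISO and ACLA-1 without clean air replicate 4 (highest adjusted p 0.0686 for UPP to 0.153 for FATB).

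**Figure D4:**
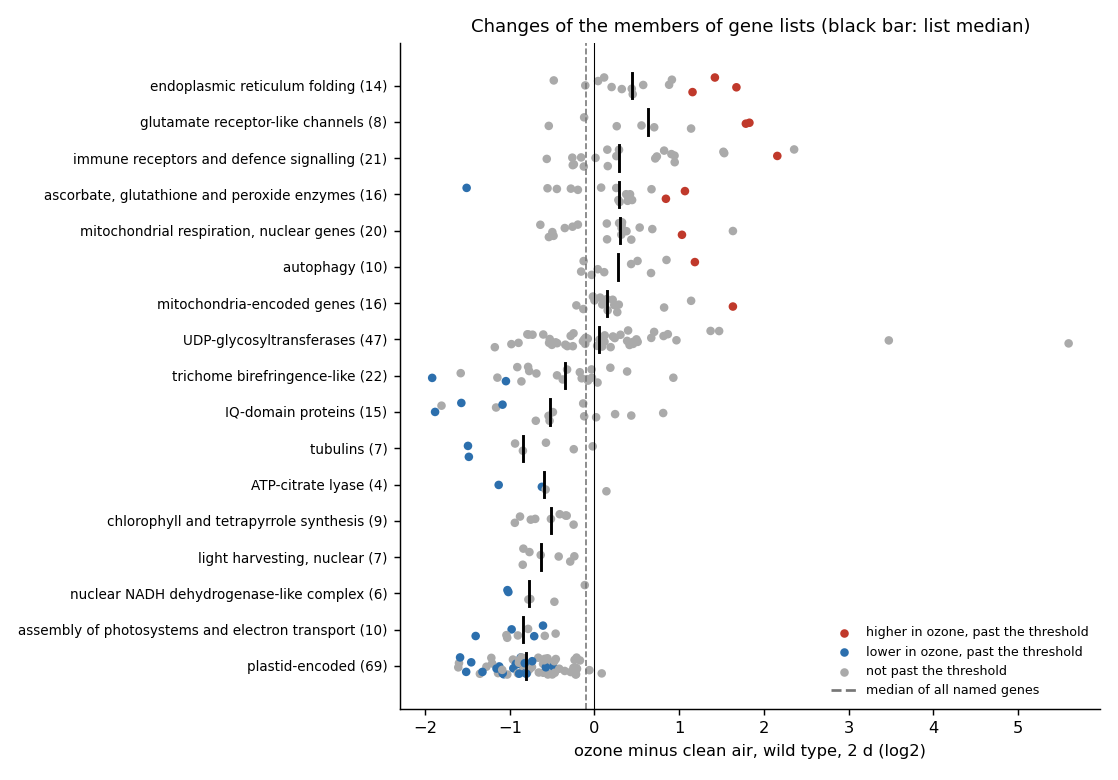
Change after 2 d of ozone in wild type (x axis, log2) for the members of 17 gene lists, 1 point per gene with the number measured in brackets, red and blue where a gene passed the test, and a black bar at each list's median. Medians run from -0.84 for the assembly genes and -0.85 for tubulins to 0.63 for the glutamate receptor-like genes (0.35 with a pseudocount of 16), and the dashed line marks the median of all named genes at -0.10.

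Some genes of growth, cytoskeleton and cell wall also fell. RALFL34, for a secreted peptide of the growth-regulating RALF family, had 10.40, 9.76, 9.33 and 9.58 in ozone leaves, against 11.41, 11.58, 11.10 and 11.03 in clean-air leaves, a change of -1.51 ± 0.28 that passed in all 8 fits with 1 array left out. Of 7 tubulin genes 2 fell and all were below 0, with a median of -0.85. Among all named genes 1.78% fell and 58.79% were below 0, and the lists of this paragraph are to be read against these shares. TUB7 had 8.83, 7.95, 7.02 and 7.84 in ozone leaves, against 9.39, 9.60, 9.32 and 9.28 in clean-air leaves and TUB1, on a dim signal, 5.31, 5.45, 4.21 and 5.32 in ozone leaves, against 6.56, 6.53, 6.76 and 6.42 in clean-air leaves. Of 15 genes for IQ-domain proteins, which bind calmodulin and in part microtubules, 3 fell, with a median of -0.53. IQD30 had 6.27, 6.48, 6.63 and 6.41 in ozone leaves, against 7.37, 7.64, 7.61 and 7.52 in clean-air leaves, a change of -1.09 ± 0.27, iqd21 changed by -1.57 ± 0.43, and IQD18 by -1.88 ± 0.32 on a signal near the lower end, which shrank to -0.73 with a pseudocount of 16. None of 24 microtubule-associated protein genes passed, with a median of -0.30 (-0.43 to -0.14 over the alternatives). With array weights 5 of them fell, and without ozone replicate 1 the count was 2. Of 22 trichome birefringence-like genes, whose products acetylate wall polysaccharides, 2 fell (0 where only the 8 arrays compared entered the fit), TBL45 by -1.92 ± 0.43 and TBL38 by -1.05 ± 0.27, with a median of -0.35. None of 18 expansin genes (median -0.36, or -0.48 to -0.14 over the alternatives) and none of 10 xyloglucan endotransglucosylase genes (median -0.24) passed. IQD18 passed in all 8 fits with 1 array left out. Leaving out ozone replicate 1 ended the call for IQD30. Leaving out ozone replicate 2, ozone replicate 3 or clean air replicate 2 ended it for TUB7, TUB1, IQD30, iqd21, TBL45 and TBL38. IQD30, iqd21 and TBL38 lost the call without ozone replicate 4, and TUB1, IQD30, iqd21 and TBL45 did without clean air replicate 1. Without clean air replicate 3 or clean air replicate 4, TUB1, IQD30, iqd21 and TBL38 lost the call (highest adjusted p 0.0634 for TUB7 to 0.127 for iqd21).

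Regulatory genes that fell included RR16, a type A response regulator of cytokinin signalling, with 8.27, 7.96, 7.92 and 7.17 in ozone leaves, against 9.94, 10.07, 8.82 and 9.82 in clean-air leaves. All 4 ozone arrays lay below all clean-air arrays, a change of -1.84 ± 0.40, and RR16 alone passed among 6 response regulator genes. ULT1, for a regulator of meristem size, had 7.95, 6.13, 6.04 and 5.39 in ozone leaves, against 8.62, 8.62, 8.71 and 6.92 in clean-air leaves, with 1 clean-air array within the ozone range. TET7, a tetraspanin membrane protein gene, changed by -1.20 ± 0.30, and CML42, for a calmodulin-like calcium sensor, had 9.30, 9.04, 9.14 and 9.60 in ozone leaves, against 10.09, 10.31, 10.38 and 10.02 in clean-air leaves. CML42 alone passed among 7 calmodulin-like and calcium-dependent kinase genes, of which 5 lay above 0, with a median of 0.69. With array weights 1 of these rose. RAD5, for a DNA repair helicase that works at stalled replication, had 2.98, 2.70, 2.23 and 3.15 in ozone leaves, against 5.63, 4.50, 4.06 and 4.82 in clean-air leaves, all near the lower end of the range. Its change of -1.99 ± 0.36 passed in all 8 fits with 1 array left out, and shrank to -0.96 with a pseudocount of 16. ALN, for allantoinase of purine breakdown, averaged 7.16 ± 0.59 in ozone leaves and 8.28 ± 0.36 in clean-air leaves. The call was lost for all of RR16, ULT1, TET7, CML42 and ALN without ozone replicate 2 or clean air replicate 2, and for all but RR16 without ozone replicate 3. Leaving out ozone replicate 4 ended the call for all but RR16 and CML42, and leaving out clean air replicate 1 ended it for all but CML42. ULT1 and ALN lost the call without clean air replicate 3 (highest adjusted p 0.0634 for RR16 to 0.125 for ALN).

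Several of the largest and steadiest changes belong to genes known here by locus number alone. AT1G55210 had 12.33, 12.88, 12.55 and 12.71 in ozone leaves, against 10.12, 9.98, 9.33 and 10.15 in clean-air leaves, a change of 2.72 ± 0.38, and AT1G76960 had 12.10, 13.17, 13.04 and 12.15 in ozone leaves, against 10.14, 9.58, 10.04 and 10.22 in clean-air leaves, a change of 2.62 ± 0.46. Both were bright, without overlap, and passed in all 8 fits with 1 array left out, as did AT1G66880 (2.41 ± 0.37) and AT5G42830 (2.32 ± 0.39). AT2G44240 had 10.45, 11.92, 7.91 and 7.38 in ozone leaves, against 3.87, 2.77, 4.23 and 4.99 in clean-air leaves, and its ozone arrays were widely scattered. AT3G28510 changed by 5.25 ± 1.33, AT4G17660 by 3.63 ± 0.79, AT4G00700 by 3.35 ± 0.77, AT3G47480 by 2.99 ± 0.66 and AT3G49340 by 2.82 ± 0.58. On the side of the falls, AT1G25230 had 8.52, 7.42, 7.74 and 8.02 in ozone leaves, against 10.47, 10.58, 10.18 and 10.44 in clean-air leaves, a change of -2.49 ± 0.38. AT1G78450 changed by -2.78 ± 0.50, AT3G60290 by -2.57 ± 0.46 and the dim AT1G23050 by -3.05 ± 0.59, and these 4 passed in all 8 fits with 1 array left out. AT2G10940 was bright in clean air, with 12.81, 9.99, 9.87 and 9.69 in ozone leaves, against 13.53, 13.53, 13.44 and 12.96 in clean-air leaves, and ozone replicate 1 stood apart from the 3 others near the clean-air level. Without ozone replicate 2, all of AT2G44240, AT3G28510, AT4G17660, AT4G00700, AT3G47480, AT3G49340 and AT2G10940 lost the call, and without ozone replicate 3, all but AT2G44240 and AT3G49340 did. Significance was lost for AT3G28510 and AT2G10940 without ozone replicate 4, and for AT2G44240, AT3G28510 and AT2G10940 without clean air replicate 1. Leaving out clean air replicate 2 ended the call for all but AT4G17660, and leaving out clean air replicate 3 ended it for AT3G28510, AT4G00700 and AT2G10940. AT3G28510 and AT4G17660 lost the call without clean air replicate 4 (highest adjusted p 0.0596 for AT4G17660 to 0.0935 for AT2G10940).

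Of 5845 pairs of genes next to each other on the chromosome, both measured, 9 had both past the test. Of these, 3 had both higher, 4 had both lower and 2 went in opposite directions. The 3.17% of named genes that passed is a share of single genes, not of pairs. Whether 9 pairs are more than chance gives was not tested. A run of 3 neighbours rose, AT1G65490 by 1.57 ± 0.37, AT1G65500 by 2.78 ± 0.59 and AT1G65510 by 2.03 ± 0.47. AT1G65500 had 10.95, 11.97, 11.38 and 11.72 in ozone leaves, against 9.65, 9.53, 8.01 and 7.72 in clean-air leaves. Neighbours AT1G69523 and AT1G69526 fell by similar amounts, -1.98 ± 0.46 and -1.68 ± 0.41. CHI and its neighbour AT2G43560 went in opposite directions, with AT2G43560 at 10.78, 10.29, 10.47 and 10.95 in ozone leaves, against 11.77, 11.97, 11.83 and 11.56 in clean-air leaves. Without ozone replicate 2, all of AT1G65490, AT1G65500, AT1G65510, AT1G69523, AT1G69526 and AT2G43560 lost the call, and without ozone replicate 3 or clean air replicate 4, AT1G65490, AT1G65510 and AT1G69526 did. The call was lost for all but AT1G65500 and AT2G43560 without clean air replicate 1, and for all but AT1G65500 and AT1G65510 without clean air replicate 2. Leaving out clean air replicate 3 ended the call for AT1G65510 and AT1G69523 (highest adjusted p 0.0638 for AT2G43560 to 0.0965 for AT1G69526). Whether the probe sets of such neighbours share sequence was not tested.

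The wild-type arrays at 3 h share no sample with those at 2 d, so both changes can be set side by side. At 3 h 342 probe sets passed (1.5%), and of the 370 that rose at 2 d 9 had passed at 3 h, all 9 in the same direction, while of the 414 that fell 4 had, 1 of them in the same direction. Among named genes the genes past the test at both times in the same direction were CYP71B23, AT5G18470, AT1G26420 and, downward, AT1G04560, with 2 d changes of 1.72 ± 0.42, 1.73 ± 0.47, 3.14 ± 0.77 and -1.07 ± 0.30. All of CYP71B23, AT5G18470, AT1G26420 and AT1G04560 lost the call without ozone replicate 2, ozone replicate 3, ozone replicate 4, clean air replicate 1, clean air replicate 2, clean air replicate 3 or clean air replicate 4 (highest adjusted p 0.0817 for AT1G26420 to 0.148 for AT1G04560). The probe sets that rose at 2 d had a median change at 3 h of 0.16, with 60.3% above 0 against 49.0% of all probe sets. Those that fell had one of -0.13, with 66.7% below 0 against 51.0%. CHI had a change of 0.27 ± 1.06 at 3 h, where it stood at 12.01 ± 2.06 in ozone and already at 11.75 ± 1.401 in clean air (SD, n = 3 each). The plastid-encoded genes had a median change at 3 h of -0.03 with 43 of 69 below 0, none past the test, and none of the 69 passed the test of the difference between times.

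The difference between the 2 d and the 3 h change, tested as an interaction, passed for 283 probe sets (1.24%), 153 with the higher and 130 with the lower change at 2 d. Of the probe sets past the test at 2 d it passed for 61 that rose and 38 that fell, and among named genes for 30 and 21. CML42 is the clearest: it changed by 1.36 ± 0.22 at 3 h and by -0.93 ± 0.19 at 2 d, both past the test, a difference of -2.29 ± 0.30 (adjusted p = 0.00138). AT5G51380 likewise changed by 2.39 ± 0.48 at 3 h and by -2.18 ± 0.42 at 2 d (adjusted p of the difference = 0.00229), and its change at 2 d did not pass without ozone replicate 2 (adjusted p = 0.0548). The 2 d change of CML42 did not pass without ozone replicate 2, ozone replicate 3 or clean air replicate 2 (highest adjusted p 0.0651). Nor did it pass where only the 8 arrays of 2 d entered the fit. AMY1 had a change of -0.70 ± 0.66 at 3 h, which did not pass, against its rise at 2 d, a difference of 4.69 ± 0.87 (adjusted p = 0.0202). ALATS had a change of -0.42 ± 0.20 at 3 h (adjusted p of the difference = 0.0364) and ALN one of 0.83 ± 0.34 (adjusted p of the difference = 0.0392), neither past the test at 3 h. The difference also passed for ccb203 (2.89 ± 0.55), RAD5 (-2.23 ± 0.55), AT1G76960 (3.11 ± 0.71), AT1G25230 (-2.53 ± 0.58) and AT3G60290 (-2.90 ± 0.70). The difference for AT1G55210, with a change of 0.37 ± 0.44 at 3 h, was 2.36 ± 0.58. CML42, AT5G51380 and ccb203 passed in all 8 fits with 1 of the 2 d arrays left out. The call of the difference was lost for all but AMY1, ALN and AT1G25230 without ozone replicate 1, and for all of AMY1, ALATS, AT1G55210, AT1G76960, RAD5, ALN, AT1G25230 and AT3G60290 without ozone replicate 2. Leaving out ozone replicate 3 or clean air replicate 2 ended the call of the difference for all but AMY1 and ALATS, and leaving out clean air replicate 1 ended it for all but AMY1. All but AMY1 and RAD5 lost the call of the difference without clean air replicate 3, and all but AMY1, ALATS and ALN did without clean air replicate 4 (highest adjusted p 0.0515 for AMY1 to 0.107 for AT3G60290). Where only the 4 groups compared entered the fit, 13 probe sets passed. Of the 11 genes named here CML42, AT5G51380 and ccb203 passed there, and the 8 others lost the call of the difference. RAD5 lost it also with a pseudocount of 16 and after quantile normalization.

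**Figure D5:**
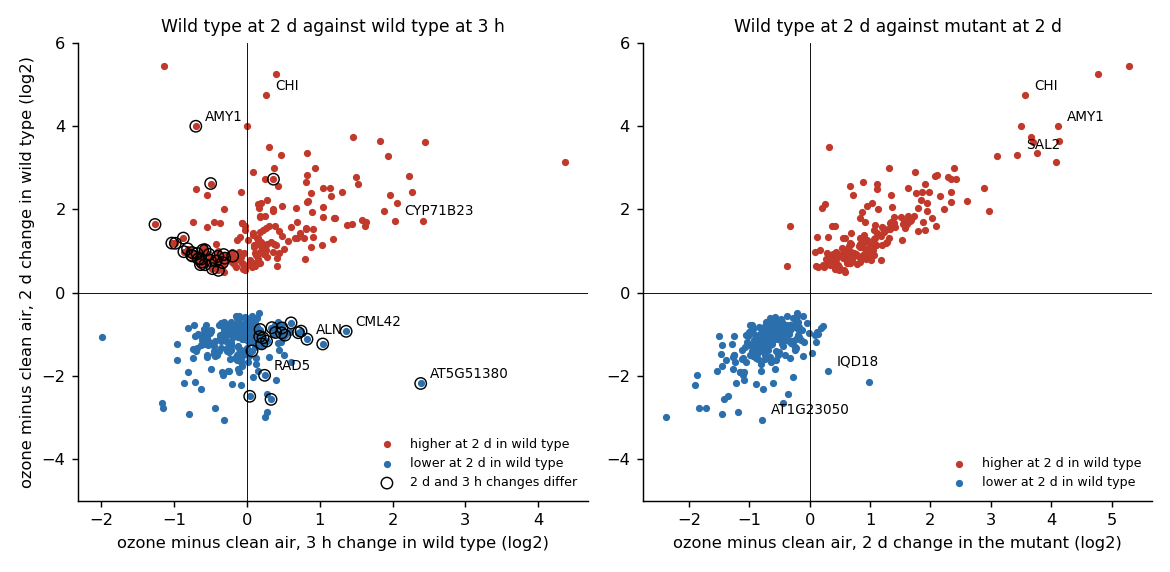
Change after 2 d of ozone in wild type (y axis, log2) for the 423 named genes past the test, against their change at 3 h in wild type (left) and at 2 d in the mutant (right), red for genes higher and blue for genes lower at 2 d in wild type; open circles mark the 51 genes whose changes at the 2 times differ. The left panel has points on both sides of 0 at 3 h, and in the right panel 183 of 185 rises and 229 of 238 falls have the same sign in the mutant.

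The mutant arrays at 2 d are separate samples that repeat the exposure in another genotype. Of the probe sets that rose in wild type 366 (98.9%) also lay above 0 in the mutant, with a median change of 0.94, against 49.1% of all probe sets. Of those that fell 399 (96.4%) lay below 0, with a median of -0.63, against 50.9%. In the mutant 43 probe sets passed (0.189%), and 29 of them were among those past the test in wild type, 25 that rose and 4 that fell, all in the same direction. AMY1 stood at 11.45 ± 0.40 in mutant ozone leaves (n = 4) and at 7.34 ± 1.07 in mutant clean-air leaves (SD, n = 3), a change of 4.11 ± 0.61, and SAL2 and RING1 changed by 3.44 ± 0.69 and 1.95 ± 0.39, all past the test. The plastid-encoded genes had a median change of -0.37 in the mutant, with 63 of 69 below 0 and none past the test.

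No probe set passed limma's test of the difference between the mutant and the wild-type change, with a lowest adjusted p of 1.0 and a median SE of 0.43. None passed in any alternative run either. An unadjusted p under 0.05 was found for 646 of 22746 probe sets, a share below the 0.05 that would fall there if none differed. A p that misses the threshold does not show that the genotypes act alike. IQD18 fell in wild type and had a change of 0.30 ± 0.35 in the mutant, rpoC1 one of 0.04 ± 0.42 and ycf3 one of -0.11 ± 0.32, differences that did not pass. The wild-type change of IQD18 lay near the lower end of the range and was -0.73 with a pseudocount of 16. IQD18 and rpoC1 lost the wild-type call where only the 8 arrays compared entered the fit.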

How the data were processed

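The deposited values are linear intensities, 1 for each probe set on each array. Per the submitters' processing notes, Affymetrix Expression Console and RMA were used, without versions. RMA usually writes log2 values, so the scaling behind these intensities is not given in the sources used. RNA was labelled with biotin, per the labels' protocols.

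From these values log2(intensity + 1) was computed with no further normalization and no filter. The size of a dim gene's change depends on the constant added. With a pseudocount of 16 the change of IQD18 went from -1.88 to -0.73 and that of RAD5 from -1.99 to -0.96. Means of the 8 groups were fitted over 27 arrays in limma 3.58.1 (R 4.3.3; 19 residual and 2.53 prior degrees of freedom), with 3 contrasts in the main: ozone against clean air in wild type at 2 d, that change minus the one at 3 h, and the change in the mutant minus that in wild type. The p-values, 2-sided, were adjusted (Benjamini-Hochberg) over all 22746 probe sets, and an adjusted p under 0.05 is called past the test. P-values measure the spread between arrays labelled as biological replicates. Alternatives were a pseudocount of 16, a filter at a mean log2 of 6, quantile normalization, centring on medians, array weights, the compared groups alone, the replicate number as a block, and each of the 8 arrays left out. The fit was also run on simulated data with independent noise for each probe set and array. Those data hold no effect shared by probe sets or arrays, so the run says nothing on such effects here.

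Of the probe sets 13513 had 1 gene in the platform annotation, 503 several, and 8730 are unnamed here; symbols came from RefSeq's TAIR10.1 table, in which the genes of 77 probe sets were not found. The brightest probe set stands for a gene.

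Genes were named by rule: the 15 largest rises and falls past the test without overlap between groups, up to 12 each that passed in all fits with 1 array left out, and up to 4 each per list. Members that did not pass, neighbours and further genes with a symbol were chosen after their values were seen, and not all genes that the rule admits are printed. Members and lists were chosen with earlier results of these data known, and part of the lists was put together from symbols after those results were seen; lists hold genes with a symbol only and are described by counts and medians, without a test. A list of proteins with a retention signal was not made, and sequences are not used here. Same-numbered ozone and clean-air arrays deviated from their group means with correlations of 0.0693, 0.0443, 0.119 and 0.276. Differently numbered arrays had correlations of -0.188 to 0.105, most of them below those of the same-numbered arrays. The labels do not tie the numbers to a shared batch, so the main fit did not pair the samples. Whether the numbers mark such a batch was not tested.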

Additional observations from a re-analysis of the deposited data

Results flagged for a closer look

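In 15 of 208 groups of 4 arrays (7.21%), over the 104 genes named, 1 array lay far from the other 3, with a gap to the nearest, as a share of the group's range, above Dixon's critical value for 4 samples; chance gives about 1 in 20. Among the ozone arrays these were GLR2.8, with replicate 4 lowest (a share of 0.957), AT4G00700, replicate 1 lowest (0.887), TUB1, replicate 3 lowest (0.891), FATB, replicate 1 highest (0.831), AT2G10940, replicate 1 highest (0.903), and DER1, replicate 4 highest (0.986). Among the clean-air arrays they were GLR2.8, replicate 3 lowest (0.893), ccb203, replicate 1 lowest (0.906), ULT1, replicate 4 lowest (0.948), CcdA, replicate 2 highest (0.904), psbC, replicate 4 highest (0.931), psaB, replicate 2 lowest (0.973), AT2G10940, replicate 4 lowest (0.836), NDB2, replicate 4 highest (0.863), and AT5G18470, replicate 2 highest (0.845). Clean air replicate 4 stood apart in 4 of these genes and no array in more.

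The ozone change in wild type differed between 2 d and 3 h, by limma's interaction test, for 11 of the named genes. The adjusted p was 0.00138 for CML42, 0.00229 for AT5G51380, 0.0202 for AMY1, 0.0215 for ccb203, 0.0364 for ALATS, 0.0382 for AT1G76960, 0.0382 for AT1G25230, 0.0392 for ALN, 0.0453 for AT3G60290, 0.0474 for RAD5 and 0.0476 for AT1G55210. For AMY1, ALATS, AT1G76960, AT1G25230, ALN, AT3G60290, RAD5 and AT1G55210 the call was lost where only the groups compared were fitted.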

How the results depend on the processing

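The number of probe sets past the test in wild type at 2 d (784) was 1021 with a pseudocount of 16, 707 after quantile normalization and 819 with arrays centred, but 1314 with dim probe sets left out, 2191 with array weights, 393 where only the 8 arrays compared entered the fit and 1299 with the replicate number as a block, and it ranged from 64 to 971 with 1 array left out. The number past the test of the 2 d minus 3 h difference (283) was 516 with dim probe sets left out and 2067 with array weights. It was 13 with only the groups compared and 564 with the replicate block. With 1 of the 2 d arrays left out it ranged from 25 to 692, and no 3 h array was left out in any fit. The genotype difference had 0 calls in each alternative run. The replicate numbers were not taken to pair the samples. The named genes kept the sign of their 2 d change in all alternatives, and the cause of the lost calls was not tested. Of 104 named genes the block ended the call of CCOAMT alone and gave one to UGT76B1 (adjusted p = 0.0232), SAG101 (0.0374), NDB2 (0.049) and CHLM (0.0483); quantile normalization ended that of 10 (ATERDJ3B, IQD30, TUB1, TBL38, ULT1, FATB, psaB, atpA, AT1G69526 and AT1G04560), centring that of 4 (psbL, psaB, atpA and AT1G04560) and a pseudocount of 16 none. Fitting only the 8 arrays compared ended 45 calls, those of ATERDJ2B, CYP71B26, CYP71B23, DI21, GR1, AER, CYTC-2, DELTA-OAT, CCOAMT, ALATS, ARA6, WES1, AT1G65490, IQD18, TUB7, TBL45, TBL38, ULT1, ATLP-1, UPP, TET7, FTSZ2-2, ACLA-1, ACLA-2, ALN, NdhN, CcdA, LPA1, NOL, FATB, Z-ISO, CML42, psbD, psbC, psbL, psaB, rpoC1, rpoC2, rpl14, ndhA, clpP, atpA, AT2G10940, AT5G18470 and AT1G04560. Under the block 2 of 7 nuclear light harvesting genes, 1 of 9 chlorophyll synthesis genes and 1 of 24 microtubule-associated protein genes fell and 3 of 47 UDP-glycosyltransferases rose. Medians of 4 of 34 lists changed sign. That of the small antimicrobial genes was 0.15 after quantile normalization, and with 1 array left out it ran from -0.20 to 0.15, above 0 without ozone replicate 2 (0.15), ozone replicate 4 (0.042) or clean air replicate 2 (0.12). That of the cytochrome P450 genes was 0.10 with dim probe sets left out, 0.076 after quantile normalization and 0.097 with array weights, and ran from -0.14 to 0.21 with 1 array left out, above 0 without ozone replicate 4. That of the UDP-glycosyltransferases was -0.11 with dim probe sets left out and ran from -0.041 to 0.13 with 1 array left out, below 0 without ozone replicate 3 (-0.021) or clean air replicate 2. That of the xyloglucan endotransglucosylases was 0.041 with array weights. Dim signals limit what can be seen, since 1.1% of probe sets under a mean of 6 passed against 6.33% above 9.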
